A study of Arabidopsis thaliana with 20 samples.

Results

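In seedlings of the Arabidopsis thaliana double mutant rz-1b rz-1c, RNA that stayed with chromatin was compared, gene by gene, with mRNA of the same genotype. Each nuclear gene was given a percentile rank in the mean of both chromatin-bound replicates and a percentile rank in mRNA, and its rank difference is the first minus the second, in percentile points. Genes with at least 1 FPKM (fragments scaled by transcript length and by the total of the column) in either kind of RNA were ranked. This kept 21153 of the 33275 nuclear genes listed for both. Of these, 18343 reached 1 FPKM in both kinds of RNA, 1507 on chromatin only and 1303 in mRNA only.

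Chromatin-bound RNA is rich in transcripts that are still being made or have not yet left the chromatin, whereas mRNA is mostly the processed, polyadenylated pool in the cytoplasm. The level on chromatin follows synthesis and retention, and the level in mRNA also follows export and decay, so the same gene can rank differently in each. The mutated genes, RZ-1B and RZ-1C, encode zinc-finger proteins that bind RNA and are known to act in pre-mRNA splicing.

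The groups were chromatin-bound RNA of rz-1b rz-1c (4 libraries under 2 replicate numbers, deposited as 2 columns) and mRNA of rz-1b rz-1c (3 libraries, deposited as 1 value per gene), and, where genotypes are compared, both kinds of RNA from wild-type Col-0 in equal numbers. All were whole seedlings, which pool every organ, grown for 10 days at 22 °C with 16 h light and 8 h dark. The labels give neither the alleles of the mutant, nor the hour of harvest, nor whether replicates were separate cultures, so a p-value here measures only the spread between samples, which may be technical. Per the labels' protocols, the chromatin pellet was washed with urea, and rRNA and polyadenylated RNA were removed from the chromatin-bound RNA before strand-specific libraries were made. Chromatin-bound values are given per replicate (n = 2). The mRNA values are the authors' single values with no error, so the comparison between the kinds of RNA has no test and no p-value. A value of 0 is a listing in the deposited tables and may be a failed estimate.

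Markers of leaf mesophyll and of root were detected in both kinds of mutant RNA. The 6 mesophyll markers summed to 2486 and 2783 FPKM on mutant chromatin and 43495 FPKM in mutant mRNA, and the 7 root markers to 43.96 and 53.04 FPKM on chromatin and 92.5 FPKM in mRNA. The 4 nuclear rRNA genes took 31.6% and 34.1% of the FPKM total on mutant chromatin and 0.113% in mutant mRNA, against 53.6% and 60.5% on wild-type chromatin and 0.0586% in wild-type mRNA. Such a share scales the FPKM of every other gene and leaves their ranks as they are. The number of reads behind each column is unknown.

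RZ-1C (AT5G04280), one of the mutated genes, was at 4.59 and 4.27 FPKM on mutant chromatin and 2.77 FPKM in mutant mRNA, against 16.7 and 13.1 FPKM on wild-type chromatin and 31.7 FPKM in wild-type mRNA. RZ-1C was thus lower in rz-1b rz-1c on chromatin and in mRNA (limma adjusted p = 0.00523 on chromatin, and q = 0.000329 for mRNA in the authors' deposited table). RZ-1B (AT1G60650), the other mutated gene, was at 132 and 143 FPKM on mutant chromatin and 2.299 FPKM in mutant mRNA, against 10.5 and 9.42 FPKM on wild-type chromatin and 15.2 FPKM in wild-type mRNA. RZ-1B was thus higher in the mutant on chromatin (log2 change 3.66, limma adjusted p = 0.000402) and lower in mRNA (q = 0.000329 in the authors' deposited table). Its rank difference was 83.02 points in the mutant and 2.67 points in the wild type. RZ-1B overlaps CB5LP in RefSeq, which was at 4.47 and 4.18 FPKM on mutant chromatin. The related gene RZ-1A had rank differences of -21.7 and -7.52 points in the mutant replicates.

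The order of genes on chromatin was related to their order in mRNA. Across the ranked genes, which share libraries and are not independent replicates, Spearman's correlation between chromatin-bound and mRNA FPKM was 0.631 in the mutant and 0.688 in the wild type, while the mutant chromatin-bound replicates correlated at 0.977. The lower and upper quartiles of the rank difference were -14.3 and 13.8 points. A gene is called chromatin-high below if its rank difference was at least 25 points in both chromatin-bound replicates, and mRNA-high if it was -25 points or less in both. In rz-1b rz-1c, 2505 genes (11.8% of those ranked) were chromatin-high and 2462 genes (11.6%) were mRNA-high. The rank differences from replicate 1 and replicate 2 lay a median of 3.02 points apart, and within 12.8 points for 95% of genes, so 25 points exceeds the spread between chromatin-bound replicates for most genes. The spread of the mRNA ranks is unknown. The gene nearest the limit on the inside was AT1G33050, with 25.3 and 25.0 points, and the nearest on the outside AT5G42965, with 24.99 and 28.4 points. On the mRNA-high side these were AT5G07475, with -25.1 and -25.01 points, and AT3G19200, with -24.999 and -32.9 points.

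**Figure D1:**
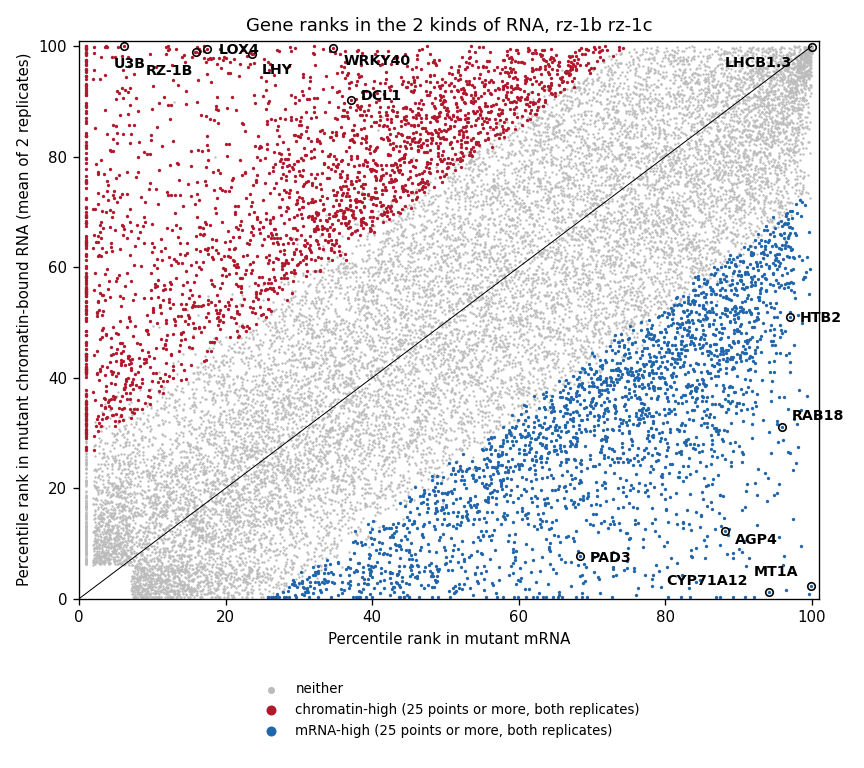
Percentile rank of 21153 genes in mutant mRNA (x axis) against their percentile rank in mutant chromatin-bound RNA (y axis, mean of 2 replicates); red points are the 2505 chromatin-high genes, blue points the 2462 mRNA-high genes, and the line marks equal rank. Chromatin-high genes such as LHY and LOX4 lie at the upper left, mRNA-high genes such as MT1A and CYP71A12 at the lower right.

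Structural RNAs (rRNA, snoRNA, snRNA and tRNA genes) had the highest medians of the biotypes ranked. The small ones guide rRNA modification, take part in splicing or carry amino acids, and their mature forms have no poly(A) tail. Of 68 ranked snoRNA genes, 59 were chromatin-high and 1 was mRNA-high, with a median rank difference of 71.6 points. The U3 snoRNA gene U3B, whose product acts in rRNA processing, was at 4009 and 4951 FPKM on mutant chromatin and 0.786 FPKM in mutant mRNA. Its copy U3D was at 7362 and 8935 FPKM on chromatin and 10.8 FPKM in mRNA, and similar U3 copies may share reads. Of 12 spliceosomal snRNA genes, 8 were chromatin-high and 0 mRNA-high. U4.2 was at 498 and 503 FPKM on mutant chromatin and 0.637 FPKM in mRNA, and U2.5 at 190.1 and 228 FPKM on chromatin and 1.71 FPKM in mRNA. The snRNA genes named here were chosen after their values were seen.

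All 80 ranked tRNA genes were listed at 0 in mutant mRNA, and 48 of them were chromatin-high. A gene at 0 in mRNA entered the ranking only through its chromatin-bound value and could not be mRNA-high. The same held for 55 of the 68 snoRNA genes and 46 of the 80 microRNA genes. The entry rule thus partly fixed the direction of the counts for these biotypes. Of the 4 nuclear rRNA genes, 3 were chromatin-high, among them AT3G41979 with 83857 and 97651 FPKM on mutant chromatin and a listing at 0 in mRNA. The remaining one, AT3G41768, was at 996 FPKM in mRNA and had a rank difference of 0.355 points. Among 80 microRNA genes, whose precursors are cut in the nucleus, 26 were chromatin-high and 5 mRNA-high. MIR850, at 116 and 84.4 FPKM on mutant chromatin and 20.998 FPKM in mRNA, and MIR398b, at 0 and 0 FPKM on chromatin and 65.6 FPKM in mRNA, show both directions and were picked after their values were seen. Pseudogenes ranked higher on chromatin, with 65 of 217 chromatin-high and 6 mRNA-high. Their median in mRNA was 0.805 FPKM, under the minimum of 1 FPKM, so most of them also entered only through chromatin. Long non-coding RNA genes went both ways, with 51 of 193 chromatin-high and 37 mRNA-high. Of the 20110 protein-coding genes, 2142 were chromatin-high and 2380 mRNA-high, with a median of -1.43 points. AT2G35743, which overlaps a snoRNA gene in RefSeq, was at 9748 and 10010.4 FPKM on mutant chromatin and 13.2 FPKM in mRNA.

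Long genes ranked higher on chromatin and short genes higher in mRNA. Protein-coding genes were also divided into 10 classes of equal size by length. Across these genes, Spearman's correlation of gene length (exons and introns, from RefSeq) with the rank difference was 0.453 in the mutant and 0.442 in the wild type. Length correlated with chromatin-bound FPKM at 0.364 and with mRNA FPKM at 0.0138. In the shortest length class, 96 to 1122 bp long, the median rank difference was -14.2 points, with 7.46% chromatin-high and 30.9% mRNA-high. In the longest class, 4577 to 27265 bp, it was 18.6 points, with 32.4% chromatin-high and 0.498% mRNA-high. For some gene lists and families below, a median is also given after the median of each gene's own length class was subtracted. This measure was chosen after seeing the data, and medians given without it still include the trend with length. Overlap with a non-coding gene in RefSeq was also uneven, at 12.9% of chromatin-high and 6.09% of mRNA-high protein-coding genes, against 8.35% of all. Strand use in the mRNA libraries is not given, so reads of overlapping genes cannot be told apart there.

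**Figure D2:**
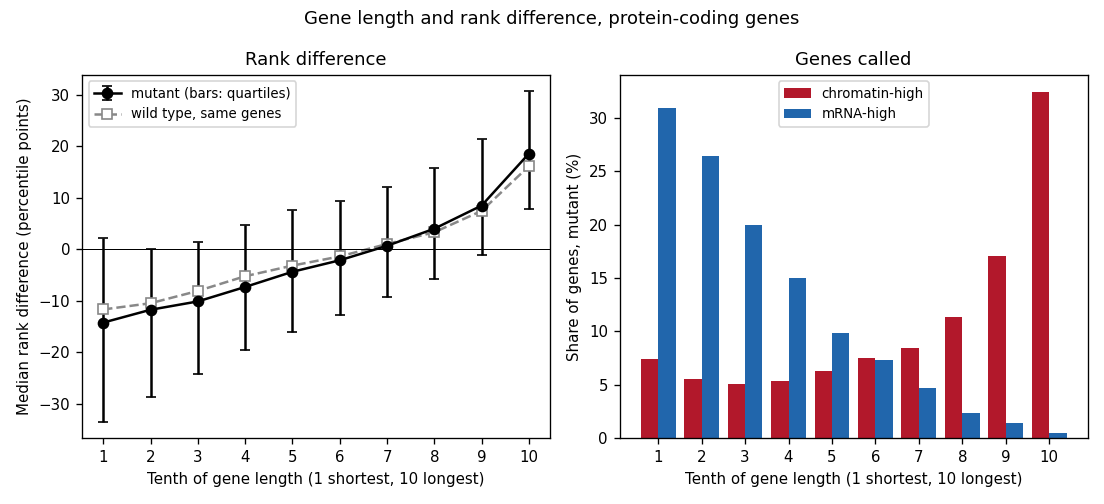
Left, the median rank difference (percentile points) of protein-coding genes in 10 classes of gene length, in the mutant and in the wild type on the same genes; right, the share of genes in each class that were chromatin-high or mRNA-high in the mutant. The mutant median climbs from -14.2 points in the shortest class to 18.6 points in the longest.

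The 8 protein-coding genes with the largest positive rank difference, among those with at least 10 FPKM on chromatin, were all under 1 FPKM in mRNA. AT5G10340 had 1948 and 1989 FPKM on mutant chromatin and 0.03996 FPKM in mRNA, and AT5G53740 had 1354 and 1739.8 FPKM on chromatin and 0.2999 FPKM in mRNA. AT5G53905, with 218 and 244 FPKM on chromatin and 0 FPKM in mRNA, overlaps U3B. AT1G24996 had 203 and 160.0 FPKM on chromatin and 0 FPKM in mRNA. AT1G18020, AT1G59124, AT1G59218 and AT2G07830 completed the set, with rank differences of 96.7, 97.8, 95.003 and 94.8 points. AT1G59124 and AT1G59218 lie in a cluster of near-identical copies, so their values are uncertain.

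AT2G07830 is one of the loci whose names begin with AT2G07, a stretch of the genome that holds a nuclear copy of mitochondrial DNA. Of 138 ranked AT2G07 loci, 105 were chromatin-high in the mutant and 2 mRNA-high, with a median of 59.3 points, and 74 were chromatin-high in the wild type. Reads of the mitochondrial genome and of that copy cannot be told apart, and this group was noticed after the values were seen.

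Genes of fast, stimulus-driven responses included many with high rank differences. Of 21 ranked stress-responsive transcription factors, 9 were chromatin-high and 0 mRNA-high, with a median of 22.2 points, or 33.9 points after subtracting length. WRKY40, a defence regulator, had 205 and 299 FPKM on mutant chromatin and 6.59 FPKM in mutant mRNA, a rank difference of 64.95 points. ZAT10, a zinc-finger repressor of the stress response, had 133 and 204 FPKM on chromatin and 17.8 FPKM in mRNA. CBF2, an activator of cold-responsive genes, had 25.6 and 74.8 FPKM on chromatin and 1.79 FPKM in mRNA, with rank differences of 69.99 and 83.9 points in the replicates. Each of these genes was chromatin-high. That call compares ranks, since FPKM of the 2 kinds of RNA are on separate totals and cannot be compared as levels. The lowest member, ANAC019, had 0.189 and 0.725 FPKM on chromatin and 2.95 FPKM in mRNA.

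Calcium, wounding and jasmonate genes had the highest median of the 29 lists, 23.4 points (22.2 after subtracting length), with 8 of 20 chromatin-high and 0 mRNA-high. The list's median was 24.5 points in replicate 1 and 10.3 points in replicate 2, where stress-responsive transcription factors (26.03 points), the small RNA pathway (21.9 points) and chromatin regulators (21.1 points) stood above it. Jasmonate is the wound hormone, made from fatty acids by lipoxygenases and sensed through degradation of the JAZ repressors. LOX4, a lipoxygenase of this pathway, had 179 and 224 FPKM on mutant chromatin and 2.58 FPKM in mRNA, a rank difference of 82.1 points. LOX3, its close relative, had 123 and 135 FPKM on chromatin and 3.801 FPKM in mRNA, a rank difference of 75.4 points. The other 6 chromatin-high members were JAZ genes. JAZ7 had 45.1 and 21.1 FPKM on chromatin and 1.103 FPKM in mRNA, and JAZ5 had 43.5 and 13.9 FPKM on chromatin and 1.04 FPKM in mRNA, higher in replicate 1 than in replicate 2. The replicates lay further apart for AOC2, an enzyme of jasmonate synthesis, whose rank differences were -14.9 and -74.5 points.

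The circadian clock list was split by member. LHY and CCA1 are morning-expressed repressors at the core of the clock, and RVE8 is a related activator. LHY had 129 and 109.9 FPKM on mutant chromatin and 3.83 FPKM in mRNA, a rank difference of 75.1 points. RVE8 had 132 and 115 FPKM on chromatin and 5.804 FPKM in mRNA, a rank difference of 66.8 points. CCA1 and the evening gene TOC1 were chromatin-high as well, at 43.1 and 26.5 points. ELF4, a gene of the evening complex, was the 1 mRNA-high member of 19, with 1.71 and 2.12 FPKM on chromatin and 18.4 FPKM in mRNA. The list's median was -4.17 points, with -1.15 points in replicate 1 alone and -1.93 points in replicate 2 alone, and turned positive with a minimum of 5 FPKM, at 5.84 points, and after subtracting length, at 4.73 points.

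Chromatin regulators and genes of the small RNA pathway ranked higher on chromatin, with medians near 0 after subtracting length. Of 21 chromatin regulators, 7 were chromatin-high and 0 mRNA-high, with a median of 21.5 points, or 2.896 after subtracting length. ATXR7, a histone methyltransferase, had 22.8 and 22.1 FPKM on mutant chromatin and 5.53 FPKM in mRNA. The SWI/SNF-type remodelling ATPase BRM had 43.4 and 33.7 FPKM on chromatin and 11.2 FPKM in mRNA, and its relative SYD had 49.3 and 41.9 FPKM on chromatin and 13.4 FPKM in mRNA. Of 16 small RNA genes, 3 were chromatin-high, all Dicer-like enzymes that cut double-stranded RNA. DCL1, the enzyme of microRNA maturation, had 38.9 and 36.3 FPKM on chromatin and 7.36 FPKM in mRNA, and its locus overlaps MIR838 and PPa1. DCL2 and DCL4 were at 47.7 and 42.5 points. The median of the small RNA list was 19.1 points, or 0.555 after subtracting length.

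Among 18 flowering-time genes, 4 were chromatin-high (22.2%, against 11.8% of all ranked genes). The list's median was 14.6 points, or 1.07 after subtracting length. FCA, an RNA-binding protein of the autonomous pathway, was highest at 46.4 points. The floral repressor SVP was the 1 mRNA-high member, at -34.8 points. Of 20 SR splicing factors, 2 were chromatin-high, a share of 10% that does not exceed the 11.8% of all ranked genes. SR34b had 61.99 and 55.4 FPKM on mutant chromatin and 15.2 FPKM in mRNA, and RS31a had 27.3 and 28.2 FPKM on chromatin and 11.9 FPKM in mRNA. RS31a overlaps AT2G46600, at 22.0 and 29.7 FPKM on mutant chromatin. No member of the spliceosome or RNA polymerase II lists was chromatin-high, and the small-nuclear-RNA-binding gene LSM8 was mRNA-high at -36.4 points. Read by symbol, a grouping made after the values were seen, the 15 RNA polymerase II subunit genes named NRPB ran from 22.7 points for NRPB1, the largest subunit, to -49.7 points for NRPB10, a small one, and 8 of them were mRNA-high.

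Among families formed by symbol with at least 12 ranked genes, 44 had a median above 0. High medians belonged to MAPKKK kinases (24.3 points, 4 of 12 chromatin-high), FRS transcription factors (23.1 points, 5 of 12) and cyclic nucleotide-gated channels (21.9 points, 5 of 16), and none of their members was mRNA-high. Their medians in replicate 2 alone were 17.3, 21.4 and 22.9 points, and after subtracting length they were 18.9, 21.2 and 17.4 points. MAPKKK9 had 37.5 and 38.8 FPKM on mutant chromatin and 5.94 FPKM in mRNA. CNGC11 had 15.5 and 13.95 FPKM on chromatin and 0.7701 FPKM in mRNA. Among SPL transcription factors, SPL13A and SPL13B stood highest at 91.1 and 93.6 points, and as near-identical copies they may share reads.

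**Figure D3:**
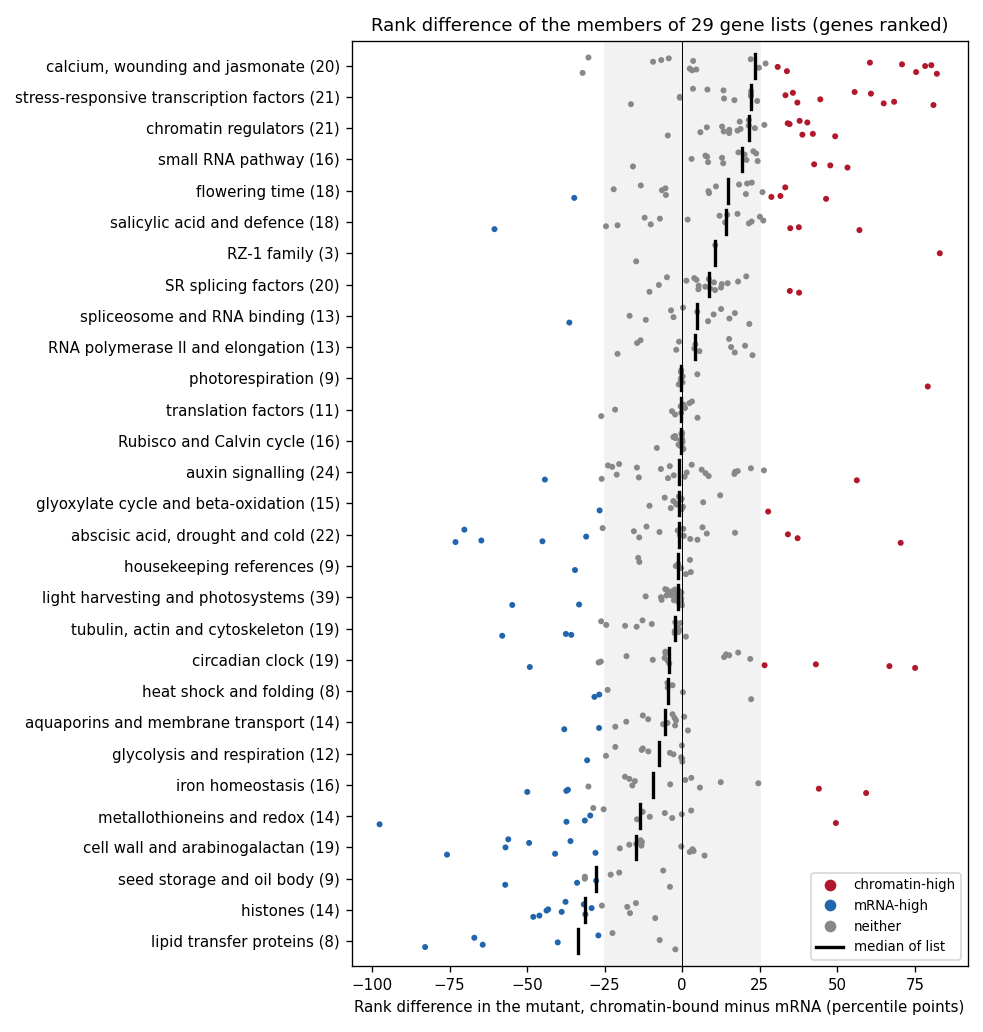
Rank difference in the mutant (x axis, percentile points) of every ranked member of 29 gene lists, ordered by list median; red members are chromatin-high and blue members mRNA-high. Jasmonate genes and stress-responsive transcription factors have the highest medians in the mean of the replicates, 23.4 and 22.2 points (jasmonate genes at 10.3 points in replicate 2 alone), and lipid transfer proteins and histones the lowest, -33.6 and -31.5 points.

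The 8 protein-coding genes with the most negative rank difference, among those with at least 10 FPKM in mRNA, were led by the metallothionein MT1A, which binds metal ions. MT1A had 0.366 and 0.332 FPKM on mutant chromatin and 2083 FPKM in mutant mRNA, a rank difference of -97.5 points, and it overlaps AT1G07590, at 330.5 FPKM in mRNA. LCR67, which encodes a plant defensin, had 0.451 and 0 FPKM on chromatin and 180.0 FPKM in mRNA. CYP71A12, a cytochrome P450 of camalexin synthesis, had 0 and 0.322 FPKM on chromatin and 116 FPKM in mRNA. The transcription factor gene bZIP2 (AT2G18160) was listed at 0 on chromatin in both mutant replicates and had 86.4 FPKM in mRNA. AT2G18162, a close identifier that only the chromatin-bound values include, was at 32.6 and 26.7 FPKM on mutant chromatin. Whether reads of bZIP2 were listed under AT2G18162 was not tested, so the 0 for bZIP2 may not mean absence from chromatin. AT2G44130, listed at 0 in both mutant chromatin-bound replicates, had 75.5 FPKM in mRNA. AT2G05510, AT1G51402 and AT5G42530 were at -89.98, -89.1 and -88.6 points. In all, 29 genes with at least 10 FPKM in mutant mRNA were listed at 0 in both mutant chromatin-bound replicates, and 23 of them also in both wild-type ones.

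Histone genes, which are short and package DNA, lay mostly on the mRNA side. Of 14, 9 were mRNA-high and 0 chromatin-high, with a median of -31.5 points, or -17.2 after subtracting length. The histone H4 gene HIS4 had 8.61 and 7.65 FPKM on mutant chromatin and 123 FPKM in mRNA. The H2B gene HTB2 had 10.6 and 7.897 FPKM on chromatin and 210.1 FPKM in mRNA. Copies of histone genes are similar enough to share reads.

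Of 8 lipid transfer proteins, 5 were mRNA-high, with a median of -33.6 points, or -19.3 after subtracting length. EARLI1 had 1.27 and 2.72 FPKM on mutant chromatin and 239 FPKM in mRNA, and its relative AZI1, a gene of defence priming, had 5.23 and 5.59 FPKM on chromatin and 367 FPKM in mRNA. LTP1, at 82.6 and 86.9 FPKM on chromatin and 1258 FPKM in mRNA, was near the top of both orders, at -2.22 points. Of 19 cell wall genes, 7 were mRNA-high and 0 chromatin-high, with a median of -14.8 points (-12.8 after subtracting length). AGP4, an arabinogalactan protein, had 1.67 and 1.702 FPKM on chromatin and 59.2 FPKM in mRNA, while the cellulose synthase CESA6 was the highest member at 7.198 points. Read by symbol, 15 of 27 AGP genes were mRNA-high, and their median of -40.1 points was the lowest of all families of at least 12 ranked genes. After subtracting length, the AGP median was -26.7 points. Of 25 GSTU glutathione transferases, 10 were mRNA-high. Their median was -18.9 points in the mutant, or -4.7 after subtracting length, and -0.78003 points in the wild type without that subtraction.

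Among 14 metallothionein and redox genes, 4 were mRNA-high. MT3, a metallothionein, had 13.9 and 10.97 FPKM on mutant chromatin and 397 FPKM in mRNA, and the glutaredoxin GRX480 was the 1 chromatin-high member, at 49.5 points. Of 22 drought and cold genes, 5 were mRNA-high and 3 chromatin-high. The dehydrin RAB18 had 3.78 and 5.91 FPKM on chromatin and 156 FPKM in mRNA, and COR15B, which protects chloroplast membranes in the cold, had 0.704 and 0.625 FPKM on chromatin and 31.2 FPKM in mRNA. NCED3, the rate-limiting enzyme of abscisic acid synthesis, lay on the other side, with 26.97 and 42.8 FPKM on chromatin and 2.82 FPKM in mRNA, a rank difference of 70.4 points. The phosphatase HAB1 and the transcription factor ABF2 were chromatin-high at 37.2 and 34.1 points.

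Of 9 ranked seed storage and oil-body genes, 3 were mRNA-high, with a median of -27.7 points, or -17.6 after subtracting length. The storage protein genes SESA1, SESA2, SESA3 and SESA4 averaged under 1 FPKM on mutant chromatin and entered the ranking only through mRNA. They could hardly be chromatin-high, so the entry rule partly fixed the direction of this list. OLEO1, a coat protein of oil bodies, had 2.61 and 3.93 FPKM on mutant chromatin and 34.7 FPKM in mRNA, and the storage globulin CRA1 had 44.8 and 58.4 FPKM on chromatin and 299.5 FPKM in mRNA. The 8 seed markers summed to 69.01 and 95.5 FPKM on mutant chromatin and 597 FPKM in mutant mRNA, against 4.32 and 1.35 FPKM on wild-type chromatin and 10.6 FPKM in wild-type mRNA. At least 1 FPKM was reached by 4 and 5 of them on mutant chromatin and 8 in mutant mRNA, against 2 and 0 on wild-type chromatin and 2 in wild-type mRNA. In bulk samples, fewer cells of a type and less RNA per cell cannot be told apart, and the part of seed tissue in these values was not tested.

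**Figure D4:**
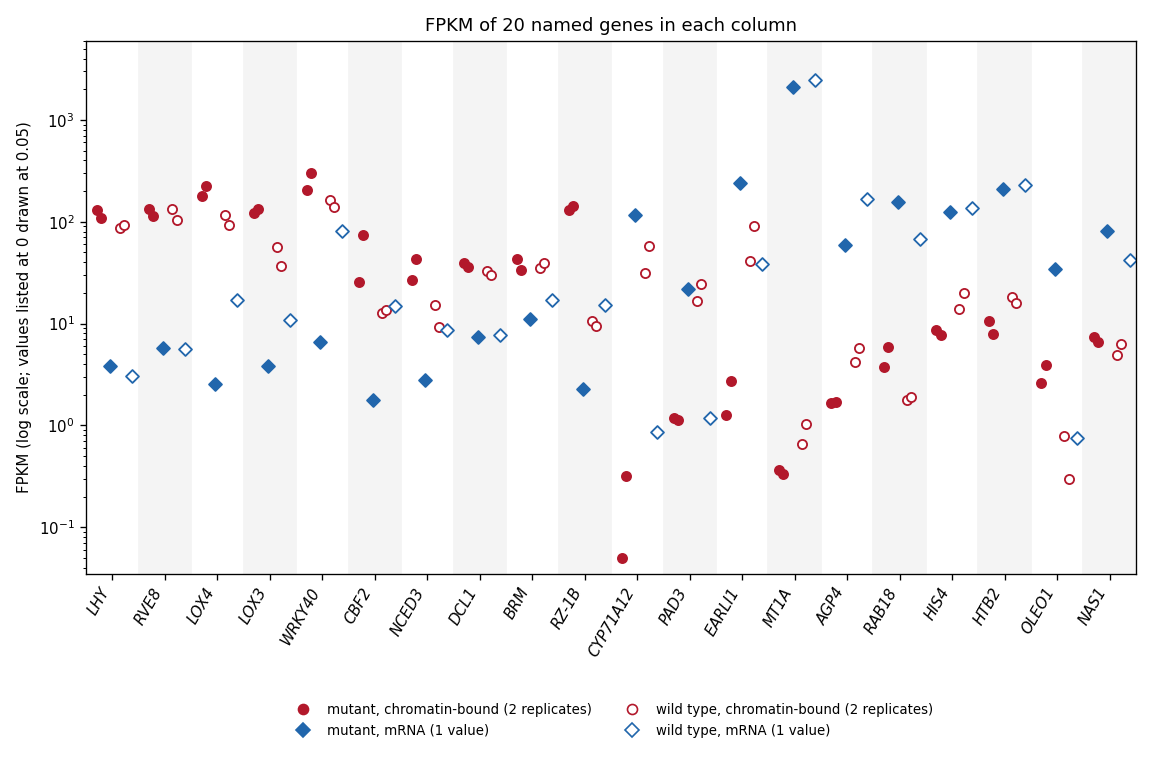
FPKM (log axis) of named genes in mutant chromatin-bound RNA (2 replicates), mutant mRNA, wild-type chromatin-bound RNA (2 replicates) and wild-type mRNA. LHY is drawn at 129 and 109.9 FPKM on mutant chromatin and 3.83 FPKM in mutant mRNA. MT1A is drawn at 0.366 and 0.332 FPKM on mutant chromatin and 2083 FPKM in mutant mRNA. FPKM of the 2 kinds of RNA are on separate totals, so their heights cannot be compared as levels.

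Most photosynthesis genes were near the top of both orders. Of 39 light-harvesting and photosystem genes, 0 were chromatin-high and 2 mRNA-high, with a median of -1.35 points, which turned to 9.47 points after subtracting length. LHCB1.3, an antenna protein, had 1192 and 1320.4 FPKM on mutant chromatin and 14931 FPKM in mRNA, a rank difference of -0.0898 points. A gene near the top of both orders can have only a small rank difference, and similar LHCB1 copies may share reads. The mRNA-high members were LHCB4.3, with 2.58 and 1.66 FPKM on chromatin and 23.4 FPKM in mRNA, and PSAD-2, with 16.5 and 12.01 FPKM on chromatin and 1013 FPKM in mRNA. The 16 Rubisco and Calvin cycle genes lay between -8.17 and 0.407 points and the 11 translation factors between -26.1 and 4.93 points, with no call in either list. Of 9 photorespiration genes, PGLP1 was chromatin-high at 79.1 points, and it has a near-identical copy with which it may share reads.

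Glycolysis and respiration (median -7.43 points), aquaporins and transport (-5.44 points), heat shock and folding (-4.72 points), the cytoskeleton (-2.43 points) and housekeeping references (-1.31 points) had no chromatin-high member, and 1 of 12, 2 of 14, 2 of 8, 3 of 19 and 1 of 9 members were mRNA-high. TUB1, a beta-tubulin, was the lowest of them at -58.01 points. Auxin signalling had 1 call each way among 24 genes, ARF19 at 56.3 and IAA17 at -44.3 points, and glyoxylate cycle and beta-oxidation genes also 1 each way among 15, PXA1 at 27.7 and CSY2 at -26.6 points. Of 18 salicylic acid and defence genes, 3 were chromatin-high, with the immune receptor RPM1 highest at 24.6 and 23.1 FPKM on chromatin and 4.03 FPKM in mRNA. RPM1 overlaps NSN1, at 25.8 and 19.9 FPKM on mutant chromatin. Of 16 iron genes, the nicotianamine synthases NAS1 and NAS4 and the regulator BHLH101 were mRNA-high, and IRT1 and FRO2 chromatin-high. Over all lists, 50 of 457 ranked genes (10.9%) were chromatin-high and 53 (11.6%) mRNA-high, close to the 11.8% and 11.6% of all ranked genes.

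The wild type was ranked over the same genes to see which rank differences the mutant shares with it. In the wild type 1953 genes (9.23%) were chromatin-high and 1852 (8.76%) mRNA-high. Of the chromatin-high genes 1443 were so in both genotypes, 57.6% of the mutant's and 73.9% of the wild type's. Of the mRNA-high genes 1258 were so in both, 51.1% of the mutant's and 67.9% of the wild type's. LHY, DCL1, MT1A and COR15B were at 75.1, 53.3, -97.5 and -73.1 points in the mutant and at 77.6, 51.4, -90.01 and -76.2 points in the wild type.

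The rank difference was higher in the mutant than in the wild type by at least 25 points, with replicates that did not overlap, for 591 genes (2.79%), and lower for 798 genes (3.77%). With 1 mRNA value per genotype this change itself was not tested. Its chromatin-bound side was tested with limma on log2(FPKM + 1), a scale that understates the change of low genes, and its mRNA side is given as the q of the authors' deposited table. On chromatin, 2595 of 19694 genes tested (13.2%) were higher in the mutant and 835 (4.24%) lower, at a Benjamini-Hochberg adjusted p under 0.05. The median log2 change of all genes was itself 0.27, above the wild type, and the counts were 1329 higher and 1544 lower with median-of-ratios scaling, and 1445 higher and 1541 lower with quantile normalization. With either mutant replicate left out no gene passed, the lone mutant column being assumed to vary like the wild type, while limma at an unadjusted p under 0.05 gave 2649 higher and 1090 lower genes without replicate 1, and 3020 higher and 922 lower without replicate 2. Each limma call given here therefore rests on both mutant replicates.

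Several single genes of wound, cold and defence responses had a higher rank difference in the mutant. WRKY40 was at 205 and 299 FPKM on mutant chromatin and 6.59 FPKM in mutant mRNA, against 164 and 141 FPKM on wild-type chromatin and 80.4 FPKM in wild-type mRNA. Its chromatin-bound level did not pass the test (limma adjusted p = 0.0733), and its mRNA had q = 0.000329 in the authors' deposited table. LOX3 was at 123 and 135 FPKM on mutant chromatin and 3.801 FPKM in mutant mRNA, against 56.03 and 37.1 FPKM on wild-type chromatin and 10.9 FPKM in wild-type mRNA, and was higher on mutant chromatin (log2 change 1.48, limma adjusted p = 0.00753). LOX4 was at 179 and 224 FPKM on mutant chromatin and 2.58 FPKM in mutant mRNA, against 116 and 92.2 FPKM on wild-type chromatin and 16.96 FPKM in wild-type mRNA, with a limma adjusted p = 0.0236 that stayed under 0.05 in 5 of 10 alternatives and reached 0.208. CBF1, a cold regulator, was at 6.81 and 27.3 FPKM on mutant chromatin and 0.361 FPKM in mutant mRNA, against 4.53 and 1.72 FPKM on wild-type chromatin and 13.6 FPKM in wild-type mRNA, and did not pass on chromatin (limma adjusted p = 0.0638). Of the stress-responsive transcription factors, 4 lay above and 4 below the wild type by 25 points or more, so the list did not move one way.

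The 5 largest rises over the wild type were those of CBF1, IRT1 and 3 small transcripts. AT1G03502, a snoRNA gene, was at 30.6 and 38.4 FPKM on mutant chromatin and 0 FPKM in mutant mRNA, against 19.1 and 4.57 FPKM on wild-type chromatin and 117 FPKM in wild-type mRNA (q = 0.03099 in the authors' deposited table). AT2G46567 and MIR833a were at 0 and 0 FPKM in mutant mRNA, against 57.4 and 138 FPKM in wild-type mRNA, differences that did not pass in the authors' deposited table (q = 0.239 for AT2G46567 and q = 1 for MIR833a). On mutant chromatin AT2G46567 was at 8.35 and 9.85 FPKM. It overlaps AT2G46572, at 8.77 and 8.08 FPKM there, and LAC6, at 5.75 and 5.14 FPKM. MIR833a overlaps AT1G78476, at 2.24 and 2.76 FPKM on mutant chromatin. IRT1, the iron transporter of the root surface, was at 9.83 and 14.7 FPKM on mutant chromatin and 2.47 FPKM in mutant mRNA, against 0.243 and 0 FPKM on wild-type chromatin and 8.71 FPKM in wild-type mRNA (limma adjusted p = 0.00104 on chromatin). FRO2, the ferric reductase that works with IRT1, had a rank difference of 59.3 points in the mutant and -10.5 points in the wild type. The other 5 root markers summed to 19.4 and 18.1 FPKM on mutant chromatin and 88.1 FPKM in mutant mRNA, against 19.1 and 17.57 FPKM on wild-type chromatin and 184 FPKM in wild-type mRNA. On chromatin, where IRT1 and FRO2 were higher in the mutant, the sums of these 5 differed by less than the replicates did. Single members moved both ways. PRP3 was at 2.68 and 2.57 FPKM on mutant chromatin against 5.77 and 5.74 FPKM on wild-type chromatin. COBL9 was at 1.53 and 1.37 FPKM on mutant chromatin against 0.737 and 0.686 FPKM on wild-type chromatin.

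The clock genes GI, PRR7 and LNK1 lay far to the mRNA side in the wild type and less so in the mutant. GI was at 13.6 and 13.01 FPKM on mutant chromatin and 26.2 FPKM in mutant mRNA, against 0.826 and 1.42 FPKM on wild-type chromatin and 34.5 FPKM in wild-type mRNA. It was higher on mutant chromatin by 2.77 on the log2 scale (limma adjusted p = 0.00129), as were PRR7 (limma adjusted p = 0.00567) and LNK1 (limma adjusted p = 0.00154). The rank differences of GI, PRR7 and LNK1 were -9.48, -26.2 and -5.39 points in the mutant and -66.8, -79.98 and -62.2 points in the wild type. The list held 6 mRNA-high genes in the wild type.

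CYP71A12 and PAD3, named for their large change or their place at the end of a list, lay on opposite sides in the mutant and in the wild type. Camalexin is a defence compound made from tryptophan, through CYP71A12 and CYP71A13 and then PAD3. CYP71A12 was at 0 and 0.322 FPKM on mutant chromatin and 116 FPKM in mutant mRNA, against 31.05 and 57.7 FPKM on wild-type chromatin and 0.8696 FPKM in wild-type mRNA. PAD3 was at 1.18 and 1.14 FPKM on mutant chromatin and 21.98 FPKM in mutant mRNA, against 16.6 and 24.3 FPKM on wild-type chromatin and 1.18 FPKM in wild-type mRNA. Both were lower on mutant chromatin (limma adjusted p = 0.000614 and 0.000885) and higher in mutant mRNA (q = 0.000329 and 0.000329 in the authors' deposited table). The rank difference was -92.96 points in the mutant and 84.7 points in the wild type for CYP71A12, and -60.5 and 69.97 points for PAD3.

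Altogether 39 genes were mRNA-high in the mutant and chromatin-high in the wild type, and 2, AT2G46567 and IRT1, were the reverse. The 39 were chosen on these same values, so the following counts describe them and test nothing. Of the 39, 37 were lower on mutant chromatin by limma, 31 were higher in mutant mRNA with q under 0.05 in the authors' deposited table, and 29 were both. AT1G26380 was at 0.915 and 1.06 FPKM on mutant chromatin and 33.4 FPKM in mutant mRNA, against 17.4 and 28.8 FPKM on wild-type chromatin and 0.328 FPKM in wild-type mRNA. AT4G12490, a gene near EARLI1, was at 0.121 and 0.115 FPKM on mutant chromatin and 24.2 FPKM in mutant mRNA, against 60.05 and 124 FPKM on wild-type chromatin and 1.47 FPKM in wild-type mRNA. Both thus followed CYP71A12. AT3G18250 had rank differences of -81.3 points in the mutant and 61.2 points in the wild type, with q = 0.4297 for its mRNA in the authors' deposited table, and it overlaps AT3G18240. The set also held CYP71A13, the P450 CYP82C2, the nitrilase NIT2, the lipase PLA2A and the senescence gene SAG13, picked after their values were seen. NIT2 was at 4.28 and 5.81 FPKM on mutant chromatin and 28.2 FPKM in mutant mRNA, against 54.1 and 126 FPKM on wild-type chromatin and 7.43 FPKM in wild-type mRNA. Within the salicylic acid and defence list, 5 of 18 genes lay below the wild type by 25 points or more and 1 above it.

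**Figure D5:**
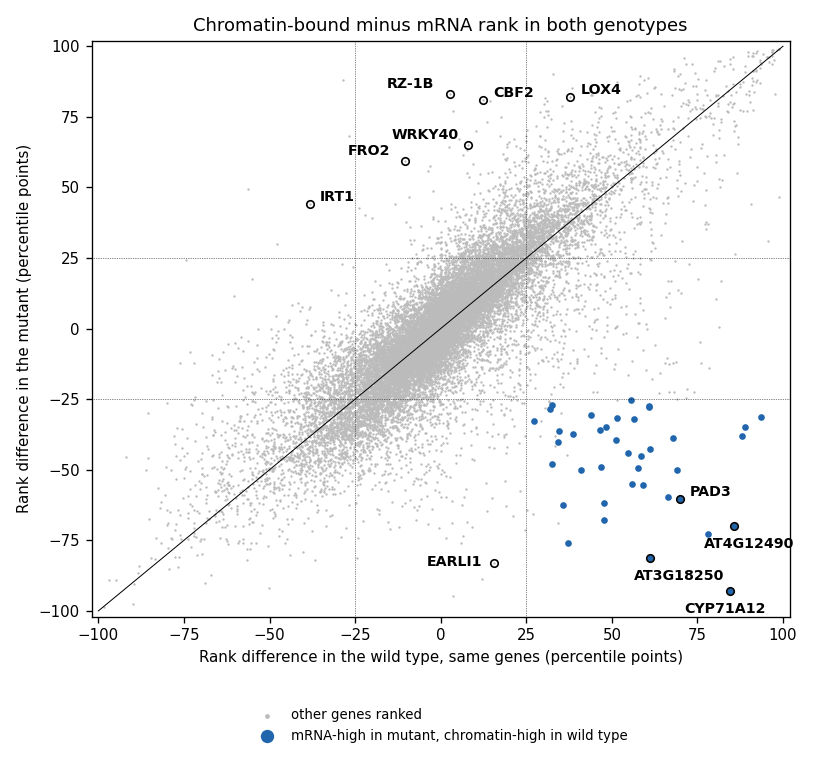
Rank difference in the mutant (y axis) against that in the wild type on the same genes (x axis), both in percentile points; the blue points are the 39 genes that were mRNA-high in the mutant and chromatin-high in the wild type. CYP71A12 lies at -92.96 points in the mutant and 84.7 points in the wild type, and RZ-1B at 83.02 and 2.67 points.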

How the data were processed

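Chromatin-bound RNA of rz-1b rz-1c and Col-0 was deposited by the authors as FPKM per gene in 2 columns per genotype, and mRNA as 1 value per genotype with the authors' q-values. The labels give 2 libraries per chromatin-bound replicate number and 3 mRNA libraries per genotype, so these were combined before deposit; the mRNA file does not name its unit, which is taken as FPKM. The submitters' processing notes list, without saying which step used them, Cuffdiff 2.2.1, TopHat2 2.1.1, StringTie 1.3.4d, HISAT2 2.0.5, Cufflinks and the TAIR10 build. 1 column of per-sample values, a second copy of mutant replicate 2, was not used. The iCLIP libraries were not analysed here.

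Tables were joined on gene identifier (33602 genes on chromatin, 33554 in mRNA), 279 organelle genes were left out, and ranks were taken with pandas 2.3.3 over genes with at least 1 FPKM in either. Symbols, biotypes and lengths came from RefSeq for 21075 genes; its assembly differs from the authors' build, so no coordinates are given. Mutant and wild-type chromatin-bound RNA were compared with limma 3.58.1 (R 4.3.3, trended variances) on log2(FPKM + 1), after genes averaging under 1 FPKM were dropped, with Benjamini-Hochberg adjustment, and the procedure was tested on simulated data. The depth of each column is unknown. The rule for the genes named took in RZ-1A, RZ-1B and RZ-1C, the 8 called protein-coding genes of largest rank difference each way with at least 10 FPKM in the RNA where they rank high, the 6 chromatin-high genes of other biotypes with the highest FPKM, both ends of each list with up to 2 more called members of highest FPKM, and the 5 largest changes from the wild type each way with at least 10 FPKM in a group mean. Any other gene was picked after its values were seen. The members and lists were chosen with earlier results of these data known. Alternatives were other minimum values, limits, pseudocounts, scalings and left-out replicates.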

Additional observations from a re-analysis of the deposited data

Results flagged for a closer look

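For 20 named genes, both chromatin-bound replicates gave rank differences on one side of 0 in the mutant and on the other side in the wild type. The difference between genotypes was not tested, since each has 1 mRNA value. The change is the mutant's rank difference minus the wild type's, in percentile points.

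In 13 genes the mutant was lower. The changes were -178 for CYP71A12, -156 for AT4G12490, -151 for AT1G26380, -142 for AT3G18250 and -130.5 for PAD3, genes that include those of camalexin synthesis. They were -101 for AT5G42530, -98.4 for the defensin gene LCR67, -98.4 for the lipid transfer protein EARLI1 and -74.6 for the alcohol dehydrogenase ADH1. Smaller changes were -29.5 for the small heat shock protein HSP23.6-MITO, -27.7 for ANAC019, -26.9 for the citrate synthase CSY2 and -1.91 for the glycolate oxidase GOX2.

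In 7 genes the mutant was higher. The changes were 116 for the snoRNA gene AT1G03502, 106 for AT2G46567, 98.5 for MIR833a and 95.1 for CBF1. They were 82.2 for IRT1, 69.8 for FRO2 and 15.2 for RZ-1C, which is itself mutated.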

How the results depend on the processing

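The 96 called named genes kept the sign of their rank difference with a minimum of 5 FPKM, wherever a value could be computed. They also kept it, wherever a value could be computed, with 1 FPKM required in both kinds of RNA. Leaving out replicate 1 or 2 could not change the sign of a called gene, so it tests nothing here. A call already required both replicates to pass the limit on the same side. The counts of chromatin-high and mRNA-high genes were 4446 and 4539 with a limit of 15 points and 1001 and 895 with 40 points. A centred log2 ratio in place of ranks gave 1475 chromatin-high and 1676 mRNA-high genes with 1 FPKM added and 2359 and 2112 with 0.1 FPKM added, and subtracting the median of the gene's length class, chosen after seeing the data, gave 1512 mRNA-high genes. Changes from the wild type numbered 140 above and 322 below at 40 points. Lists and biotypes with a median above 0 were 21 of 41, against 10 of 30 with protein-coding genes only and 12 of 29 with length subtracted, which leave out other biotypes. With a single chromatin-bound replicate, chromatin-high genes numbered 2857 to 2944, mRNA-high genes 2853 to 2980, changes above the wild type 584 to 757 and below it 734 to 952.

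The limma counts of genes higher and lower on mutant chromatin were 1418 and 513 with no filter on low values, 1329 and 1544 with median-of-ratios scaling and 1445 and 1541 with quantile normalization. Leaving out 1 replicate gave 0 to 3989 higher and 0 to 883 lower, 0 without either mutant replicate, 3989 and 883 without wild-type replicate 1, and 1477 and 645 without wild-type replicate 2. The replicate block gave 3469 higher and 1051 lower. Deviations of same-numbered columns correlated at 0.014, so little shared effect of the replicate number was seen. Whether same-numbered samples were prepared together is unknown. Unknown depth and the single mRNA value per genotype limit every comparison.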
